A study of Homo sapiens with 18 samples.

Results

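RCOR1 siRNA was set against control siRNA in LNCaP cells exposed to the synthetic androgen R1881, a comparison of 6 of the 18 RNA-seq libraries of the study. LNCaP is an established line of human prostate adenocarcinoma cells that depend on androgen signalling. The libraries were chosen by their labels, 3 with RCOR1 siRNA and R1881 and 3 with control siRNA and R1881. All genes that passed a filter on low counts entered the comparison, 15390 of the 60649 genes in the count table. The RNA was total RNA depleted of ribosomal RNA, so unspliced transcripts also gave reads.

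Cells were transfected with siRNA against RCOR1, and their controls with a non-targeting siRNA. Both groups were given 5 nM R1881 at 48 h after transfection and collected after 48 h of treatment. The RCOR1 siRNA and control siRNA groups in vehicle were handled in the same way with ethanol in place of R1881, and UPF1 siRNA groups completed the series in both treatments. Each of the 6 groups was a biological triplicate per the labels, all from this cell line, so p-values measure the spread between these triplicates. The labels name 1 siRNA treatment per gene, and effects of the loss of RCOR1 and other effects of that siRNA cannot be told apart. Total counts ran from 12181389 to 15479748 in the 6 libraries compared.

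RCOR1, also called CoREST, is the scaffold that joins the histone demethylase KDM1A (LSD1) to the histone deacetylases HDAC1 and HDAC2. The assembled complex removes active marks from nucleosomes at enhancers and promoters and was first described as a partner of REST, the repressor of neuronal genes outside the nervous system. In prostate cancer cells KDM1A is known as a coregulator of androgen-responsive genes and has been described both as a coactivator and as a corepressor there. Androgen induces secretory, lipid and protein-folding genes and represses another set of genes.

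The libraries within each group were not uniform. The first library of each R1881 group had 13000 CPM of the long nuclear RNA MALAT1 with RCOR1 siRNA and 14500 CPM with control siRNA, against 30400 to 31200 CPM and 33800 to 34600 CPM in the other two libraries of each. Genes with a GC content below 40% lay at a median of -0.085 log2 units with RCOR1 siRNA and -0.322 with control siRNA in these first libraries, relative to the mean of all 18, and between 0.283 and 0.366 in the other 4. The total count and the counts of 7 gene lists below are therefore also given without both first libraries. The fourth principal component, with 6.38% of the variance, separated RCOR1 siRNA from control siRNA libraries in both treatments. KLK3 and ACP3, secretory markers of luminal prostate cells, were abundant in all 6 libraries, with values given below.

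The targeted transcript was lowered in every library. RCOR1 (ENSG00000089902.10, GRCh38 chromosome 14, 102592661 to 102730576, plus strand) had 12.8, 12.3 and 12.4 CPM with RCOR1 siRNA, against 68.2, 85.4 and 85.5 CPM with control siRNA. The groups did not overlap, and the level with RCOR1 siRNA was 15.7% of control. Its log2 fold change was -2.67 ± 0.15 (SE; edgeR adjusted p = 6.6e-08). CPM are counts scaled to library totals and between libraries by TMM, and the SE comes from the fitted model. Here and below, "called" means an adjusted p under 0.05 (Benjamini-Hochberg, over all tested genes) in edgeR's quasi-likelihood test.

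Transcripts of the catalytic partners stayed near control. KDM1A had 66.7, 67.6 and 66.7 CPM with RCOR1 siRNA and 65.2, 66.1 and 63.9 CPM with control siRNA, or 0.04 ± 0.08 on the log2 scale (edgeR adjusted p = 0.83). HDAC1 was at -0.01 ± 0.07 and HDAC2 at 0.13 ± 0.16, and neither was called (edgeR adjusted p = 0.937 and 0.705). The paralogues RCOR2, at 0.74 ± 0.41, and RCOR3, at 0.13 ± 0.19, were not called either (edgeR adjusted p = 0.276 and 0.74). Of the 28 tested members and partners of the CoREST complex, 2 were called higher and 3 lower. That share was 17.9%, with the targeted RCOR1 counted, against 12.4% of all genes. Among the higher ones was PHF21A, the BHC80 subunit that reads unmethylated histone H3, with 43.8, 40.8 and 41.5 CPM with RCOR1 siRNA against 31.1, 32.9 and 31.3 CPM with control siRNA. Its groups did not overlap, and it rose by 0.40 ± 0.07 log2 units. Besides RCOR1 itself, the lower ones were GSE1, a coiled-coil partner, at -0.46 ± 0.07, and the subunit HMG20B at -0.41 ± 0.11. The HMG20B call was lost without both first libraries or with any of 5 of the 6 libraries left out.

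Over all genes, 1907 of 15390 (12.4%) were called, 779 higher (5.06%) and 1128 lower (7.33%). At least 2-fold changes were called for 199 higher and 104 lower genes. Without both first libraries, 870 genes were called, 381 higher and 489 lower. The direction of the balance depended on the scaling: with library size alone, 1624 genes were called and 67.7% of them were higher, against 40.8% with TMM. Genes called lower were more abundant, with a median of 54.6 CPM, against 11.4 CPM for genes called higher and 19.4 CPM for all tested genes. Protein-coding genes made up 97.1% of the lower and 78% of the higher calls (all tested genes, 81.7%), and their median GC contents were 52.6% and 47.8% (all tested genes, 48.1%). Since GC content also separated libraries within a group, the count was repeated with a correction for it, which gave 3333 calls, 1471 higher and 1862 lower. Of the 1907 genes called, 1833 were among these.

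**Figure D1:**
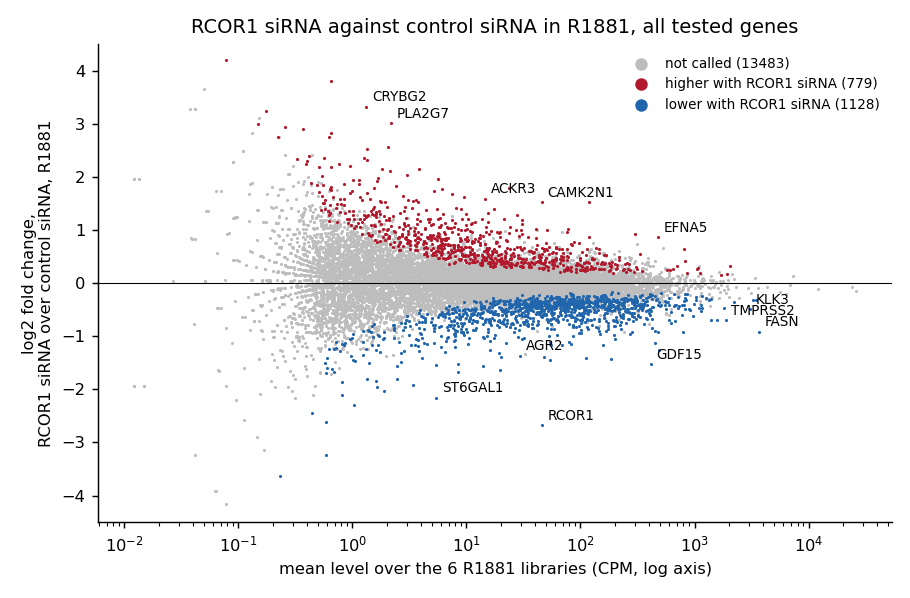
Log2 fold change (RCOR1 siRNA over control siRNA, in R1881) against mean level over the 6 libraries in CPM on a log axis, 1 point per tested gene. Red points are the 779 genes called higher and blue points the 1128 called lower. RCOR1 lies at -2.67, and 2 genes lie outside the plotted range.

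Among called genes that averaged at least 1 CPM, the steepest rises were led by genes that were nearly silent with control siRNA. CRYBG2 (chromosome 1, 26321698 to 26360080, minus strand), a crystallin-domain gene, had 2.35, 2.54 and 2.36 CPM with RCOR1 siRNA against 0.216, 0.146 and 0.361 CPM with control siRNA, a log2 fold change of 3.32 ± 0.34. PLA2G7, the secreted phospholipase that inactivates platelet-activating factor, had 2.35, 3.95 and 5.29 CPM with RCOR1 siRNA against 0.433, 0.292 and 0.723 CPM with control siRNA (3.01 ± 0.43). BRDT, a bromodomain protein normally restricted to the testis, had 2.35, 3.51 and 4.8 CPM with RCOR1 siRNA against 0.433, 0.877 and 0.452 CPM with control siRNA (2.55 ± 0.38). All 3 genes stayed below 6 CPM in every R1881 library while the siRNA groups did not overlap. The other steep rises were in AFAP1L2 (2.53), the neuronal calcium sensor NCALD (2.36), the diacylglycerol kinase DGKK (2.32), FAM184B (2.15), the netrin NTNG2 (2.14), the noncoding RNA LINC02635 (2.12), the ferroxidase HEPH (2.03), arginase ARG1 (1.97), the manganese exporter SLC30A10 (1.95), the dynein DNAH9 (1.94), the receptor ADGRF4 (1.94) and GCOM1 (1.93). DNAH9 lost its call without the third library with RCOR1 siRNA or without both first libraries. Among abundant transcripts the rises were small, with the laminin chain LAMC1 at 0.33 ± 0.07, the amyloid precursor relative APLP2 at 0.29 ± 0.05 and the deubiquitinase relative USP54 at 0.26 ± 0.05, the last not called without both first libraries.

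By the same rule, the steepest falls after RCOR1 were led by BNIP5 and ST6GAL1. BNIP5 had 0.587, 0.175 and 0.244 CPM with RCOR1 siRNA against 2.16, 1.24 and 1.81 CPM with control siRNA. ST6GAL1, the sialyltransferase of N-linked glycans, had 1.54, 2.46 and 2.04 CPM with RCOR1 siRNA against 9.8, 9.35 and 7.5 CPM with control siRNA, a log2 fold change of -2.16 ± 0.22. In vehicle ST6GAL1 had 1.93, 2.16 and 1.29 CPM with RCOR1 siRNA against 2.85, 4.23 and 5.04 CPM with control siRNA. RUNX1, a transcription factor, had 3.96, 3.77 and 4.4 CPM with RCOR1 siRNA against 10.9, 12.9 and 15.2 CPM with control siRNA (-1.68 ± 0.21). RAB15, a vesicle GTPase, fell in either treatment, to 9.46, 10.3 and 8.79 CPM in R1881 against 33.9, 27.6 and 27.7 CPM with control siRNA, and to 12.8, 10.7 and 11.2 CPM in vehicle against 30.5, 33.1 and 30.7 CPM. The remaining steep falls were in thromboxane synthase TBXAS1 (-2.03), TYRP1 (-1.95), the BMP antagonist NBL1 (-1.92), the endopeptidase PHEX (-1.80), the receptor kinase inhibitor SPRY4 (-1.56), the retinol dehydrogenase RDH12 (-1.56), ADAM7 (-1.55), the stress cytokine GDF15 (-1.53), the death-associated kinase DAPK2 (-1.52) and the neuropeptide GAL (-1.48). PHEX and RDH12 were not called without both first libraries.

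Classic androgen-induced genes were reached unevenly. Of 43 tested members of this list, 17 fell, 5 rose and 21 were not called, with a median log2 fold change of -0.27 against -0.009 over all genes. Of all genes, 7.33% were called lower and 5.06% higher in R1881. In vehicle the same members gave 6 lower and 11 higher, with a median of 0.119 against -0.007 over all genes, where 6.21% of all genes were called lower and 5.31% higher. Without both first R1881 libraries, 15 fell and 1 rose of 42 tested. In a fit of the 6 libraries compared alone, 14 fell and 0 rose of 42. With 1 library left out at a time, 14 to 16 fell and 0 to 4 rose, the 0 without RCOR1 siRNA replicate 1.

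TMPRSS2 (chromosome 21, 41464551 to 41531116, minus strand), the membrane protease gene whose androgen-driven promoter is often fused to ERG in prostate cancer, had 1510, 1380 and 1430 CPM with RCOR1 siRNA against 2440, 2270 and 2280 CPM with control siRNA. The groups were well apart, by -0.70 ± 0.07 on the log2 scale (edgeR adjusted p = 1.18e-05). In vehicle it had 225, 244 and 227 CPM with RCOR1 siRNA against 195, 237 and 210 CPM with control siRNA and was not called. KLK3 (chromosome 19, 50854915 to 50860764, plus strand), which encodes prostate-specific antigen, had 2820, 2320 and 2570 CPM with RCOR1 siRNA against 3970, 3590 and 3300 CPM with control siRNA (-0.49 ± 0.10, edgeR adjusted p = 0.00561). The KLK3 call in R1881 was lost with library size alone (edgeR adjusted p = 0.0528). In vehicle KLK3 went the other way, with 373, 406 and 355 CPM with RCOR1 siRNA against 268, 351 and 270 CPM with control siRNA (0.35, edgeR adjusted p = 0.0407). KLK2, the neighbouring kallikrein with which KLK3 can share reads, was lower in R1881 at -0.50 ± 0.09 and higher in vehicle at 0.57.

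**Figure D2:**
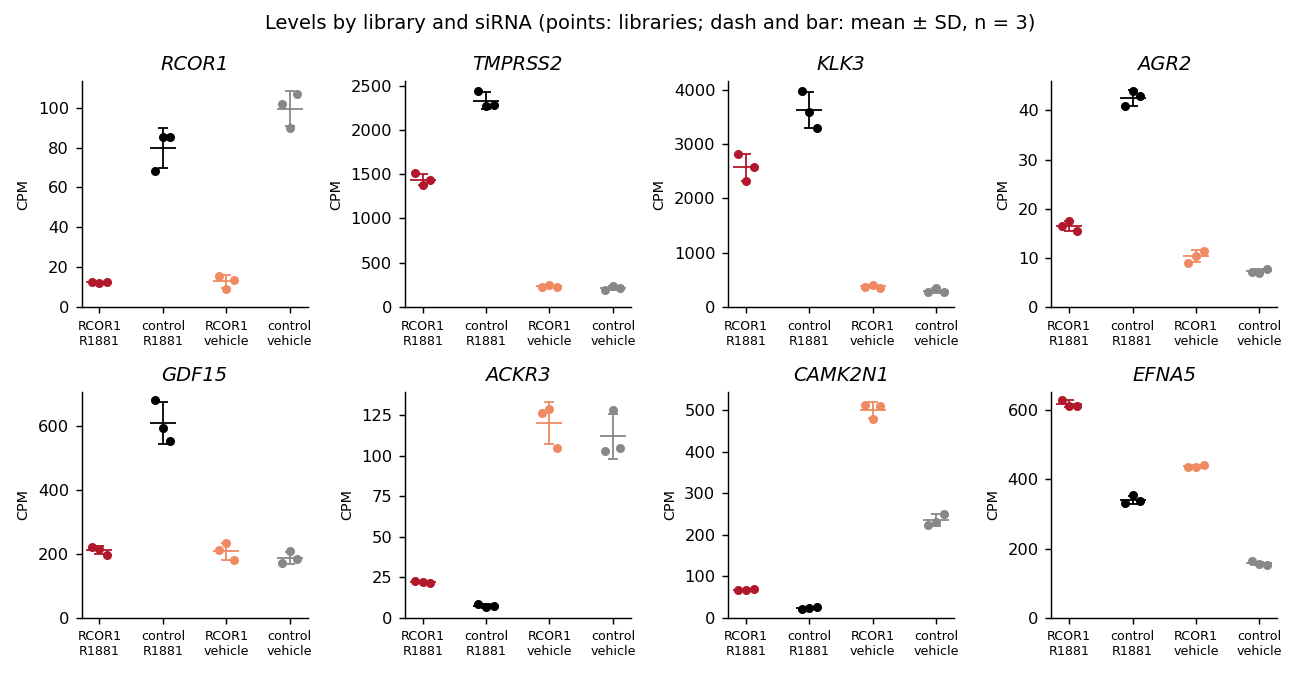
Level in CPM of 8 genes in each library, with RCOR1 siRNA left of control siRNA, first in R1881 and then in vehicle; the dash and bar give the mean ± SD of 3 libraries. TMPRSS2, KLK3, AGR2 and GDF15 were lower with RCOR1 siRNA in R1881, ACKR3, CAMK2N1 and EFNA5 were higher, and RCOR1 was lower in both treatments.

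Further androgen-induced genes that fell included SMS, spermine synthase, with 457, 450 and 489 CPM with RCOR1 siRNA against 712, 820 and 825 CPM with control siRNA (-0.76 ± 0.08). GNMT, the glycine methyltransferase, fell by 0.79 ± 0.10 log2 units, the glucocorticoid- and androgen-induced TSC22D3 by 0.80 ± 0.10, sorbitol dehydrogenase SORD by 0.36 ± 0.06 and the transporter SLC45A3 by 0.51 ± 0.09. STEAP4, a metalloreductase, had 44.2, 50.3 and 61.5 CPM with RCOR1 siRNA against 73.7, 131 and 139 CPM with control siRNA (-1.14 ± 0.20), and ORM1, an acute-phase glycoprotein, had 4.99, 5.09 and 4.48 CPM against 12.2, 9.87 and 11.3 CPM. Their groups did not overlap, although the first control library of STEAP4 stood well below the other two. By contrast the co-chaperone FKBP5 (-0.27 ± 0.11, edgeR adjusted p = 0.122) was not called. Members that rose were KLK4 (0.43), PMEPA1 (0.26), ADAMTS1 (0.15), the phospholipase PLA2G2A (0.85) and KLKB1 (2.18), the last at under 2 CPM in every R1881 library. PLA2G2A stood against the name of the list, since R1881 lowered it by 2.81 log2 units with UPF1 siRNA. The PMEPA1 and ADAMTS1 rises were small, and the ADAMTS1 call was lost when any 1 of the 6 libraries was left out.

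Of 19 androgen-repressed genes, 6 were higher and 5 lower, against 5.06% of all genes called higher and 7.33% lower. Without both first libraries 4 were higher and 2 lower of 20 tested, with the 6 libraries alone 3 were higher and 1 lower of 16, and with 1 library left out at a time 4 to 5 were higher and 2 to 5 lower. ACKR3 (chromosome 2, 236567787 to 236582358, plus strand), the scavenging receptor of CXCL12, had 22.4, 22 and 21.3 CPM with RCOR1 siRNA against 8.36, 6.43 and 7.05 CPM with control siRNA, or 1.59 ± 0.12 on the log2 scale (edgeR adjusted p = 5.51e-07). In vehicle it had 126, 129 and 105 CPM with RCOR1 siRNA against 103, 128 and 105 CPM with control siRNA and was not called. CAMK2N1, an inhibitor of the calcium/calmodulin kinase CaMKII, had 67.5, 66.8 and 69.2 CPM with RCOR1 siRNA against 22, 24.3 and 24.8 CPM with control siRNA (1.52 ± 0.07) and was also higher in vehicle (1.09). The kappa opioid receptor OPRK1 (0.56 ± 0.09) and the neuronal adhesion protein SLITRK3 (1.31 ± 0.22) were higher in R1881 and lower in vehicle (-0.30 and -0.45). DAPK1 (0.84) and CXCR4 (0.58) were the other higher members. Lower were aromatic amino acid decarboxylase DDC, at 2.79, 3.95 and 4.07 CPM with RCOR1 siRNA against 6.78, 8.77 and 9.49 CPM with control siRNA, the channel KCNN2 (-0.30) and the glucuronidation genes UGT2B17, UGT2B28 and UGT2B11, whose sequences are so alike that reads can be assigned to the wrong copy. Against the name of the list, R1881 raised 4 of the 11 called members with UPF1 siRNA, by log2 fold changes of 1.53 for CXCR4, 2.08 for UGT2B11, 5.03 for UGT2B28 and 0.63 for KCNN2.

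The same unevenness was seen over all androgen-responsive genes. To choose them without the libraries compared, genes were classed by their response to R1881 with UPF1 siRNA. Of 777 genes induced at least 2-fold there, 176 (22.7%) were lower and 57 (7.34%) higher with RCOR1 siRNA in R1881, against 7.33% and 5.06% of all genes, with a median log2 fold change of -0.16. In vehicle 56 (7.21%) of them were lower and 80 (10.3%) higher, with a median of 0.03. Of 1575 genes repressed at least 2-fold, 98 (6.22%) were higher and 38 (2.41%) lower in R1881, with a median of 0.10, while in vehicle 76 (4.83%) were higher and 155 (9.84%) lower, with a median of -0.10. The median effect in R1881 was thus opposite in sign to the response of the class, and in vehicle it had the sign of the response. The UPF1 siRNA libraries that set the classes were not uniform either. Their genes with a GC content below 40% lay at -0.628, -0.437 and 0.084 log2 units in R1881 and -0.158, 0.261 and 0.417 in vehicle. The part of this drift in the classes and their medians was not tested.

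Of 34 tested genes of the unfolded protein response and endoplasmic reticulum (ER) secretion, 19 fell, none rose and 15 were not called, against 7.33% of all genes called lower. This pathway senses misfolded proteins in the ER through IRE1, PERK and ATF6 and raises chaperones, degradation factors and coat proteins; in prostate cells androgen is known to raise its IRE1-XBP1 arm. The median of the list was -0.31. In vehicle 6 members were lower and none higher, with a median of -0.15, against 6.21% of all genes called lower there. A test of the difference between the treatments called 2 of the 34 members, against 0.767% of all genes. All 19 had siRNA groups that did not overlap in R1881, but the same libraries gave the calls, so this adds no separate support.

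XBP1, the transcription factor activated by IRE1, had 204, 197 and 203 CPM with RCOR1 siRNA against 344, 301 and 319 CPM with control siRNA, or -0.67 ± 0.07 on the log2 scale (edgeR adjusted p = 1.17e-05). In vehicle its groups met at 122 CPM and XBP1 was not called, at 120, 122 and 119 CPM with RCOR1 siRNA and 122, 128 and 128 CPM with control siRNA. HERPUD1, an ER membrane protein of the degradation pathway, had 178, 156 and 176 CPM with RCOR1 siRNA against 300, 270 and 273 CPM with control siRNA (-0.72 ± 0.08). EDEM1, which directs misfolded glycoproteins to degradation, had 235, 236 and 242 CPM with RCOR1 siRNA against 350, 394 and 394 CPM with control siRNA (-0.68 ± 0.07). For both genes the lowest control library lay far above the highest library with RCOR1 siRNA. SDF2L1 (-0.76 ± 0.15), the ER transcription factor CREB3L4 (-0.65 ± 0.11), the coat protein SEC24D (-0.64 ± 0.09), PDIA4 (-0.46), MANF (-0.44), HYOU1 (-0.43) and the disulfide isomerase PDIA3 (-0.41 ± 0.05) followed. CREB3L1 had only 4 counts over the 3 libraries with RCOR1 siRNA against 42 with control siRNA. The chaperone HSPA5 (BiP) changed by little, with 774, 750 and 786 CPM with RCOR1 siRNA against 875, 908 and 886 CPM with control siRNA (-0.21 ± 0.05, edgeR adjusted p = 0.0185), and HSP90B1 (0.06), ATF6 (-0.09) and the IRE1 gene ERN1 (-0.17) were not called. Without both first libraries 11 of the 34 were lower. With library size alone 10 were lower, with the 6 libraries alone 9, and with the GC correction 24 were lower and 1 higher.

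Promoters of this list were searched for the ER stress response elements that ATF6 and XBP1 are known to bind, because this list held the most called genes of 1 direction in R1881 among the lists examined. The promoters were those of RefSeq on GRCh38.p14, 250 bases before to 50 bases after each start, and 32 of the 34 genes had one. The first element, ERSE, reads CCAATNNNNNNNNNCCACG and stood, on either strand, in 0.0769% of all 35116 promoters and in those of 8 listed genes, of which 5 were lower and 3 not called. The second, ERSE-II, reads ATTGG, any base and CCACG, does not overlap the first in any listed gene, and stood, on either strand, in 0.0541% of all promoters and in those of 3 listed genes, all of them lower. No listed gene had both. Of the 17 lower genes with a promoter in the table, 9 had neither.
XBP1, lower, chr22:28800583-28800641, minus strand: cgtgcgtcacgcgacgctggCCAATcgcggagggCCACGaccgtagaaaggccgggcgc
HSPA5, lower, chr9:125241371-125241429, minus strand: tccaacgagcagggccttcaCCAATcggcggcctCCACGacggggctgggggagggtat
CRELD2, lower, chr22:49918534-49918592, plus strand: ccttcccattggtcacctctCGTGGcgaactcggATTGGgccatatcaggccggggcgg
CANX, not called, chr5:179698758-179698816, plus strand: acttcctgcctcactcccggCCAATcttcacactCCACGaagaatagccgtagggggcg
ERO1B, not called, chr1:236282163-236282208, minus strand: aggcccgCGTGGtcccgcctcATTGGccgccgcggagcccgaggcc
HERPUD1, lower, chr16:56932005-56932055, plus strand: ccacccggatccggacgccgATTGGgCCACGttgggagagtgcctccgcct
SDF2L1, lower, chr22:21642094-21642144, plus strand: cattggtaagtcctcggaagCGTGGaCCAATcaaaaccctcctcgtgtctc
Capitals mark the fixed bases of the element, which in CRELD2, ERO1B and SDF2L1 lies on the other strand. The sequences of XBP1 and CANX show that the same letters occurred in a gene that fell and in one that was not called, at -0.15.

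Targets of the integrated stress response, which ATF4 drives when translation initiation is slowed, also included called falls. Of 32 tested members 18 were lower and none higher, with a median of -0.33, against 7.33% of all genes called lower. All 18 had siRNA groups that did not overlap, again in the libraries that gave the calls, so this too adds no separate support. In vehicle 12 were lower and 1 higher, with a median of -0.28, against 6.21% of all genes called lower and 5.31% higher. A test of the difference between the treatments called 1 of the 32 members, against 0.767% of all genes. GDF15, a secreted stress cytokine, had 223, 216 and 197 CPM with RCOR1 siRNA against 683, 594 and 555 CPM with control siRNA in R1881 (-1.53 ± 0.14, edgeR adjusted p = 6.06e-06), and 211, 233 and 180 CPM against 171, 209 and 185 CPM in vehicle. The RCOR1 siRNA libraries in R1881 were thus within the range of the 6 vehicle libraries. MTHFD2, an enzyme of one-carbon metabolism, had 69, 73.7 and 84.4 CPM with RCOR1 siRNA against 115, 129 and 137 CPM with control siRNA in R1881 (-0.75 ± 0.11), with -1.25 in vehicle. PHGDH, the first enzyme of serine synthesis, was at -0.64 ± 0.11 in R1881 and -0.62 in vehicle, PSAT1 at -0.49 ± 0.08 and -0.78, and the mTOR inhibitor DDIT4 at -0.68 ± 0.10 and -0.74. ATF4 itself fell by 0.33 ± 0.08 log2 units in R1881, with 274, 250 and 260 CPM with RCOR1 siRNA against 354, 313 and 318 CPM with control siRNA. ASNS (-0.46), DDIT3 (-0.19) and TRIB3 (-0.17) were not called. Without both first libraries 9 of the 32 were lower, with library size alone 11, and without control siRNA replicate 1 alone 11. With the 6 libraries alone 8 of 31 tested were lower.

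Immediate early and growth factor feedback genes, which respond to MAP kinase signalling within minutes, were in part lower in R1881. Of 25 tested members 12 were lower and none higher, with a median of -0.47, against 7.33% of all genes called lower. In vehicle 1 was lower, 1 was higher and the median was -0.03, against 6.21% of all genes called lower and 5.31% higher. A test of the difference between the treatments called 3 of the 25, against 0.767% of all genes. For the other members a difference was not shown. SPRY4, a feedback inhibitor of receptor tyrosine kinases, had 7.7, 7.19 and 6.51 CPM with RCOR1 siRNA against 27.2, 20.8 and 15.2 CPM with control siRNA (-1.56 ± 0.19, edgeR adjusted p = 5.77e-05). DUSP1, a MAP kinase phosphatase, had 40.3, 42.4 and 39.9 CPM with RCOR1 siRNA against 83.5, 64.2 and 62 CPM with control siRNA (-0.77 ± 0.13). The lowest control library was still well above the highest with RCOR1 siRNA in both genes, and the control libraries of SPRY4 spread most. DUSP5 (-1.30 ± 0.22), the mRNA-decay factor ZFP36 (-0.87 ± 0.14), NR4A1 (-0.84 ± 0.18), JUNB (-0.77 ± 0.15), MYC (-0.40 ± 0.11) and FOS (-1.23 ± 0.38, under 3 CPM in every R1881 library) were also lower, whereas EGR1 (-0.48) and JUN (0.15) were not called. Without both first libraries 6 of the 25 were lower, with library size alone 7, and without either RCOR1 siRNA replicate 2 or replicate 3 also 7. With the 6 libraries alone 7 of 24 tested were lower.

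**Figure D3:**
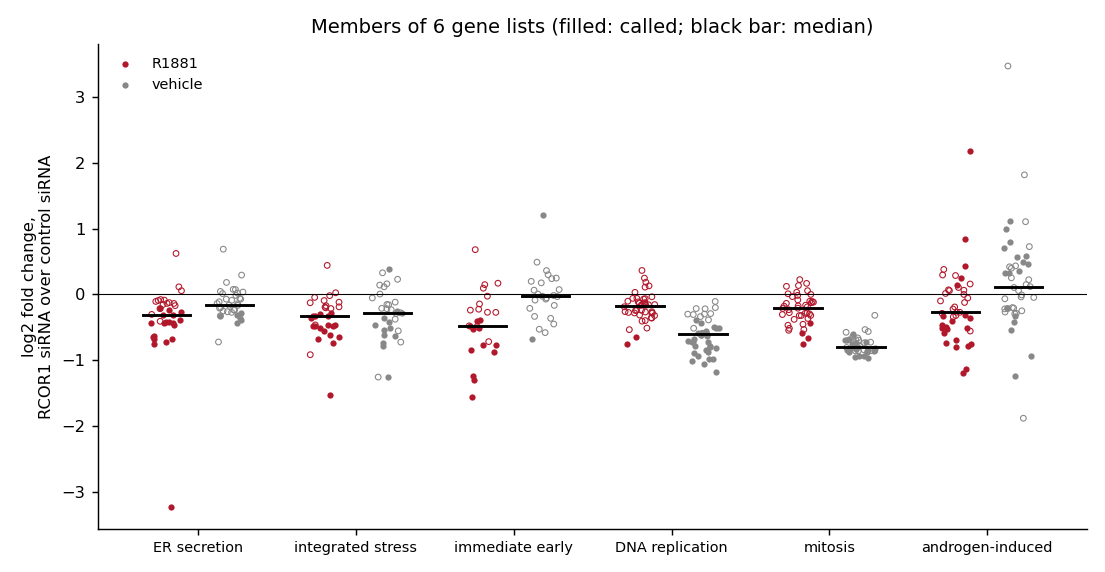
Log2 fold change (RCOR1 siRNA over control siRNA) of each tested member of 6 gene lists, in R1881 (red) left of vehicle (grey). Filled points were called, open ones were not, and the black bar is the median. Immediate early genes had a median of -0.47 in R1881 and -0.03 in vehicle, while mitosis genes had -0.21 in R1881 and -0.80 in vehicle.

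Lipid synthesis genes, which androgen raises through SREBP factors, were in part lower as well. Of 22 fatty acid synthesis genes 10 were lower and 1 higher (median -0.24), and of 24 sterol synthesis genes 7 were lower and none higher (median -0.27). In vehicle 7 and 5 were lower and none higher. Of all genes, 7.33% were called lower in R1881 and 6.21% in vehicle. FASN, fatty acid synthase, had 2800, 2540 and 2350 CPM with RCOR1 siRNA against 5420, 4540 and 4550 CPM with control siRNA (-0.92 ± 0.13, edgeR adjusted p = 0.000209), with -0.53 in vehicle. FADS2, a fatty acid desaturase, had 493, 416 and 450 CPM with RCOR1 siRNA against 757, 737 and 707 CPM with control siRNA (-0.70 ± 0.11). In both genes every library with RCOR1 siRNA was below every control library. The regulators SREBF1 (-0.44), SCAP (-0.69 ± 0.13) and INSIG1 (-0.55 ± 0.09), ATP-citrate lyase ACLY (-0.34) and the cholesterol enzymes EBP (-0.59 ± 0.12) and FDPS (-0.46 ± 0.10) were lower, while the elongase ELOVL6 was higher by 1 log2 unit (SE 0.25). FDPS was not called with library size alone. Without both first libraries the lower members numbered 7 of 22 and 5 of 24, and with library size alone 4 and 3. With the 6 libraries alone they numbered 3 of 21 and 4 of 24. Without control siRNA replicate 1 alone, 6 of the 22 fatty acid synthesis genes were lower. Of 36 glycolysis and hypoxia genes 9 were lower, among them the hexokinase HK2 (-0.72 ± 0.10), the phosphofructokinase PFKP (-0.60 ± 0.10) and NDRG1 (-0.53 ± 0.10), and PFKM was higher (0.32 ± 0.07).

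Markers of luminal prostate epithelium gave 7 lower and 2 higher of 20 tested, against 7.33% and 5.06% of all genes. ACP3, prostatic acid phosphatase, had 217, 216 and 224 CPM with RCOR1 siRNA against 336, 375 and 362 CPM with control siRNA (-0.71 ± 0.06). SPDEF, an ETS factor of secretory cells, had 197, 186 and 183 CPM with RCOR1 siRNA against 360, 292 and 296 CPM with control siRNA (-0.74 ± 0.13). The luminal keratins KRT8 (-0.48 ± 0.12) and KRT18 (-0.47 ± 0.10), the pioneer factor FOXA1 (-0.19 ± 0.06) and HOXB13 (-0.39 ± 0.10) were lower by less. KRT19 was higher (0.53 ± 0.14), as was CDH1 (0.19 ± 0.06), whose call was lost when any 1 library was left out. The KRT18 call was lost with library size alone and without both first libraries. Among 30 claudin, keratin and adhesion genes 7 were lower, with the junction protein F11R at -0.71 ± 0.07 and CLDN7 at -0.69 ± 0.12, and 3 were higher, with cingulin CGN at 0.49 ± 0.09.

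Lists of developmental signalling pathways held members called in both directions. The share called was 13.3% in the TGF-beta and BMP list, near the 12.4% of all genes, 20% in the axon guidance and p53 lists, 25% in the Wnt list and 27.3% in the Notch list. EFNA5, an ephrin ligand that guides axons, rose in both treatments, with 630, 612 and 614 CPM with RCOR1 siRNA against 331, 355 and 337 CPM with control siRNA (0.86 ± 0.05, edgeR adjusted p = 6.6e-08). SEMA3B (0.88 ± 0.12), EFNB2 (0.50 ± 0.07), SEMA4F (0.61) and EPHB6 (1.63) also rose, and PLXNA3 (-0.64 ± 0.12), EFNB1 (-0.51) and SEMA6A (-0.44) fell, in all 8 of 40 axon guidance genes. In the Notch list of 22, the coactivator MAML2 rose to 12, 16.3 and 15.1 CPM with RCOR1 siRNA against 3.39, 6.14 and 4.52 CPM with control siRNA (1.63 ± 0.22) and MAML3 by 0.34 ± 0.08, while the receptors NOTCH1 (-0.60 ± 0.12) and NOTCH3 (-0.56), the target HES4 (-1.32 ± 0.14) and NUMB (-0.36) fell. In the Wnt list of 28, the feedback genes RNF43 (1.21 ± 0.13) and AXIN2 (0.85 ± 0.11) rose, and the receptors FZD5 (-0.73 ± 0.09) and FZD8 (-0.80), LRP5 (-0.47), TCF7L2 (-0.57) and the ligand WNT9A (-1.13 ± 0.19) fell. Of 30 TGF-beta and BMP genes, TGFBR3 (0.96 ± 0.12), SMAD7 (0.42 ± 0.11) and PMEPA1 rose and SKI fell (-0.34 ± 0.08). Of 30 p53 targets, PMAIP1 (1.21 ± 0.21), SESN1 (0.67 ± 0.11), XPC (0.37) and CYFIP2 (0.35) rose, while GDF15 and TNFRSF10B (-0.45 ± 0.07) fell. NOTCH1, PLXNA3, SMAD7 and SKI were not called without both first libraries.

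Of 53 listed neuronal genes under REST, 23 passed the filter on low counts, of which 1 rose and 3 fell, against 5.06% and 7.33% of all genes. NEFL, a neurofilament, had 4.33, 4.74 and 3.83 CPM with RCOR1 siRNA against 1.73, 1.68 and 2.98 CPM with control siRNA (1.03 ± 0.22). STMN3 (-0.87 ± 0.16), CPLX1 (-0.87 ± 0.19) and the neuropeptide precursor VGF (-1.13 ± 0.26) fell. The NEFL, STMN3 and VGF calls were lost without both first libraries. REST itself was at 0.17 ± 0.31 and was not called, with 122, 192 and 191 CPM with RCOR1 siRNA and 87.9, 181 and 180 CPM with control siRNA, where the first library of each group stood apart from the other two. Of 8 tested neuroendocrine genes 1 fell, the kinase AURKA.

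More cell cycle genes were called lower in vehicle than in R1881, though the test of the difference called none of them. In R1881, 2 of 42 DNA replication genes fell (E2F1, -0.64 ± 0.14, and TK1, -0.75 ± 0.20), as did 4 of 42 mitosis genes (CCNB2, FOXM1, PRC1 and AURKA) and 1 of 43 replication-dependent histone genes, H2BC21, and none rose. In vehicle 29, 23 and 20 of the same lists fell. Of all genes, 7.33% were called lower in R1881 and 6.21% in vehicle. The calls of E2F1, TK1, PRC1, AURKA and H2BC21 were lost without both first libraries. The interaction of siRNA and R1881 called no member of these 3 lists, so a difference between the treatments was not shown for any of them. FOXM1, the mitotic transcription factor, had 29.6, 27.1 and 27.5 CPM with RCOR1 siRNA against 49.5, 40.8 and 42.8 CPM with control siRNA in R1881, and 70.7, 68.9 and 56.1 CPM against 98.3, 127 and 104 CPM in vehicle. Its groups were apart in both treatments, on a lower level in R1881.

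Several gene lists had at most 3 calls in R1881, where 12.4% of all genes were called. The share called was 13.3% in nuclear noncoding RNAs and 11.8% in nonsense-mediated decay, near that of all genes, and 2.78% in interferon-stimulated genes. It was 18.8% in the NF-kappaB list, 17.6% in antigen presentation and 22.2% in epithelial-mesenchymal transition, each resting on at most 3 calls in a short list. None of 80 cytosolic ribosomal protein genes, 13 mitochondrially encoded genes or 29 nuclear receptor coregulators was called, with medians of -0.005, -0.09 and -0.006. Of 36 interferon-stimulated genes, UBE2L6 alone rose (0.93 ± 0.26), and of 17 nonsense-mediated decay factors UPF1 (-0.36 ± 0.11) and SMG5 (-0.36 ± 0.10) fell. NF-kappaB genes gave 3 falls of 16, NFKB2 (-0.51), RELB (-0.79) and MAP3K14 (-0.46), antigen presentation genes 3 of 17, B2M (-0.24), CALR and PDIA3, and nuclear noncoding RNAs 2 of 15, PCAT1 (-0.85 ± 0.13) and NEAT1 (-0.61 ± 0.17). Of 9 tested markers of epithelial-mesenchymal transition, FN1 (0.33 ± 0.09) and SNAI2 (0.68 ± 0.21) rose. Of these, the calls of UPF1, SMG5, NFKB2, RELB, MAP3K14, B2M, CALR, NEAT1, FN1 and SNAI2 were lost without both first libraries, and the RELB groups overlapped.

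**Figure D4:**
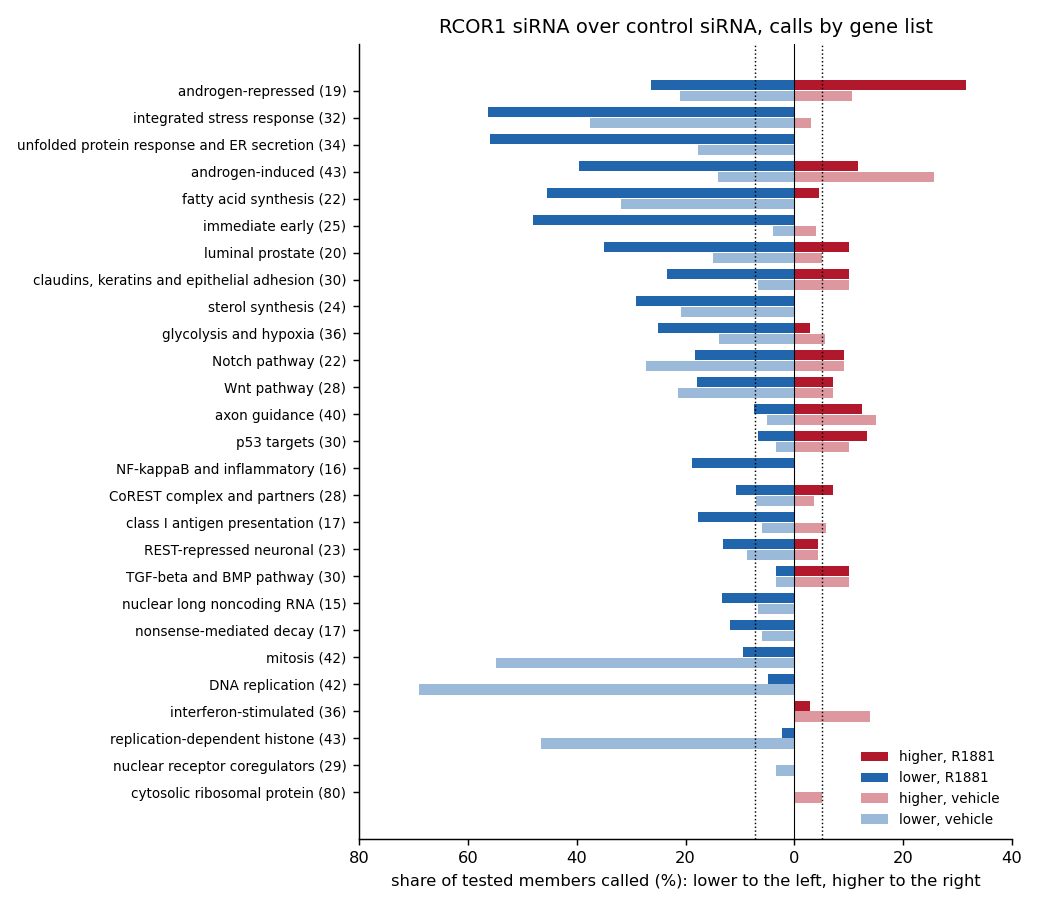
Share of the tested members of each gene list (number in parentheses) called lower, to the left, and higher, to the right, with RCOR1 siRNA over control siRNA; full colour is R1881 and pale colour vehicle. Dotted lines mark the shares of all genes in R1881, 7.33% lower and 5.06% higher. Integrated stress, ER secretion and immediate early genes reach farthest to the left in R1881, and DNA replication and mitosis genes in vehicle.

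Fibroblast, endothelial and leukocyte markers were low in both groups, while the sum of the basal epithelial markers was not. The 8 fibroblast markers summed to 5.79 to 7.04 CPM with RCOR1 siRNA and 3.98 to 6.34 CPM with control siRNA, with COL1A2 at 0 in all 18 libraries; none of 2 tested was called. The 6 endothelial markers summed to 5.53 to 6.16 CPM with RCOR1 siRNA and 3.51 to 4.9 CPM with control siRNA, with CDH5 at 0, and the 8 leukocyte markers to 0.614 to 1.1 CPM with RCOR1 siRNA and 0.903 to 1.17 CPM with control siRNA, with CD3E at 0; the 1 tested gene of each was not called. The 7 basal epithelial markers summed to 66.5 to 101 CPM with RCOR1 siRNA and 60.8 to 97 CPM with control siRNA, with TP63 and KRT17 at 0. Most of this was ITGA6, at 36 to 44.2 CPM with RCOR1 siRNA and 41.9 to 61.1 CPM with control siRNA, and DST. DST had 25.7 to 55.5 CPM with RCOR1 siRNA and 15.9 to 35.7 CPM with control siRNA. KRT14 was higher (0.77 ± 0.21), a call lost without both first libraries. The endothelial sums did not overlap between the siRNA groups, and their part in the results was not tested. They were almost all VWF, at 6.16, 5.26 and 5.62 CPM with RCOR1 siRNA against 4.83, 3.36 and 4.7 CPM with control siRNA. In bulk RNA, fewer cells in a state and less RNA per cell cannot be told apart.

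The effect in R1881 was then set beside the effect in vehicle, measured in 6 other libraries. There 1772 genes (11.5%) were called, 817 higher and 955 lower. Both treatments called 800 genes, 781 of them in the same direction, which is 41% of the calls in R1881 and 44.1% of those in vehicle. Whether called in vehicle or not, 90% of the genes called in R1881 had the same sign there, against 67.4% of all genes. Of the 781, 332 were higher and 449 lower, and 19 genes were called in opposite directions. Among those called in opposite directions were KLK3, KLK2, AGR2, KLF4, OPRK1, SLITRK3 and B2M. The R1881 calls of KLF4 and B2M were lost when any 1 R1881 library was left out.

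A test of the difference itself, the interaction, called 118 genes (0.767%), with 35 effects higher in R1881 (0.227%) and 83 lower (0.539%). Without both first R1881 libraries it called 50. AGR2, a disulfide isomerase of the ER, had 16.4, 17.5 and 15.5 CPM with RCOR1 siRNA against 40.8, 43.9 and 42.9 CPM with control siRNA in R1881. In vehicle it had 9.03, 10.4 and 11.5 CPM with RCOR1 siRNA against 7.22, 7.01 and 7.79 CPM with control siRNA, so the order of the groups was reversed. The interaction was -1.86 ± 0.15 (edgeR adjusted p = 1.76e-05). SIPA1L2, a regulator of small GTPases, had 44.1, 40.9 and 41.6 CPM with RCOR1 siRNA against 90.9, 97.3 and 97 CPM with control siRNA in R1881, and 25, 25.8 and 30 CPM against 24.1, 23.4 and 25.2 CPM in vehicle. KLF4, an epithelial transcription factor, had 26.7, 28 and 26.4 CPM with RCOR1 siRNA against 37.4, 40 and 38.8 CPM with control siRNA in R1881, and 31.3, 32.7 and 28.7 CPM against 14, 11.8 and 14.6 CPM in vehicle. The order of the siRNA groups was thus opposite in the treatments. The KLF4 call in R1881 was lost without both first libraries, with library size alone and when any 1 R1881 library was left out.

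AFF3 and TSC22D1, both transcriptional regulators, were at 0.07 and 0.04 in R1881, neither called, and higher in vehicle at 1.29 and 0.73. EFNA5 rose in both, by 0.86 in R1881 and 1.47 in vehicle. In the androgen-induced list the interaction called 8 members lower (KLK2, KLK3, TMPRSS2, SMS, SLC45A3, SGK1, MAF and PMEPA1) and 1 higher (the ion channel TRPM8), of 43. Of the 777 genes induced by R1881 with UPF1 siRNA it called 33 lower and 2 higher, and of the 1575 repressed genes 15 higher and 2 lower. Of all genes it called 0.539% lower and 0.227% higher.

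**Figure D5:**
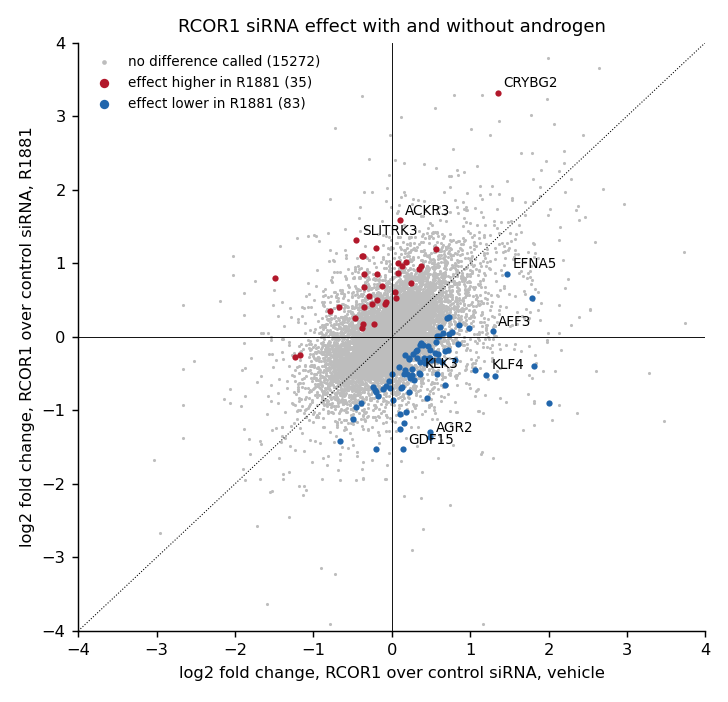
Log2 fold change (RCOR1 siRNA over control siRNA) in R1881, vertical axis, against that in vehicle, horizontal axis, 1 point per tested gene. Coloured points are the 35 genes whose effect was higher in R1881 (red) and the 83 whose effect was lower (blue) by the interaction test, the dotted line marks equal effects, and 9 genes lie outside the range.

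Against UPF1 siRNA in R1881, which gives a second targeted group without use of the control libraries, 6244 genes (40.6%) were called for RCOR1 siRNA. MALAT1 had 3760, 4590 and 21400 CPM in these UPF1 siRNA libraries, against 13000, 31200 and 30400 CPM with RCOR1 siRNA. The part of this unevenness in the calls was not tested. RCOR1 was lower by 2.83 log2 units, and UPF1 was higher by 2.15. ADAM7 (-4.07), SPRY4 (-3.33), TYRP1 (-3.05), DDC (-3.02) and GDF15 (-2.20) were lower than with UPF1 siRNA, and PLA2G7 (2.65), CRYBG2 (2.16), HEPH (2.02), ACKR3 (1.77) and EFNA5 (0.68) were higher. UPF1 siRNA itself raised each of these lower genes over control siRNA in R1881. The rises were 2.53 for ADAM7, 1.77 for SPRY4, 1.10 for TYRP1, 1.80 for DDC and 0.68 for GDF15, so these differences hold the effects of both siRNAs. For TMPRSS2 (-0.27, edgeR adjusted p = 0.0073) and KLK3 (-0.41, edgeR adjusted p = 0.00617) the difference was smaller, and for SMS (-0.08), GNMT (0.22) and ST6GAL1 (-0.28) none was called. Each siRNA against control siRNA in R1881 gave, side by side, -0.76 with RCOR1 siRNA and -0.68 with UPF1 siRNA for SMS, -0.79 and -1.01 for GNMT, -2.16 and -1.87 for ST6GAL1, and -0.92 and -1.30 for FASN; these pairs share the control libraries.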

How the data were processed

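RNA-seq of LNCaP cells, 18 libraries in 6 groups of 3, was analysed from raw gene counts that the authors deposited. The submitters' processing notes list bcl2fastq 2.20, STAR 2.7.9a, featureCounts of Subread 1.6.4 and genome build GRCh38.p7; no source used here gives the annotation release or strand setting. Groups came from the labels of treatment and transfection.

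From these counts, 15390 of 60649 genes passed filterByExpr in edgeR 4.0.16 (R 4.3.3). Counts were scaled by TMM and fitted with 6 group means over all 18 libraries, and each comparison used the quasi-likelihood F test with Benjamini-Hochberg adjustment at 0.05. The SE is the log2 fold change over the root of F. The interaction is the RCOR1 siRNA effect in R1881 minus that in vehicle. GC content, gene type and coordinates came from GENCODE 29, which matched 15203 tested genes (98.8%). The test was checked on simulated counts. Replicate pairs differed by 2.98 to 46.2 times counting noise, so no library was counted as a duplicate. Alternatives were no filter, RLE factors, library size alone, DESeq2 1.42.0, fewer libraries, a GC correction and each library left out. The fit without both first R1881 libraries was chosen after seeing the data.

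The comparison, the gene lists and the rules were chosen with earlier results of these data known. Named genes were RCOR1 and its partners, the 15 steepest rises and 15 steepest falls averaging at least 1 CPM, the 6 most abundant in each direction, up to 4 called members of each list, the 8 leading interaction genes, and 6 genes of the androgen response. Some of these genes are not reported here. Further list members were named after their values were seen.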

Additional observations from a re-analysis of the deposited data

Results flagged for a closer look

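The effect of RCOR1 siRNA differed between R1881 and vehicle for 118 genes by the interaction test (edgeR adjusted p under 0.05). The values that follow are log2 differences, the effect in R1881 minus the effect in vehicle, for genes named in the text.

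Effects were lower in R1881 for AGR2 (-1.86), DUSP5 (-1.79), KLF4 (-1.72), GDF15 (-1.67), SIPA1L2 (-1.32), DAPK2 (-1.32), AFF3 (-1.22) and TSC22D1 (-0.69). Among androgen-induced genes they were lower for SGK1 (-1.12), KLK2 (-1.08), KLK3 (-0.85), TMPRSS2 (-0.82), SLC45A3 (-0.66), MAF (-0.59), SMS (-0.55) and PMEPA1 (-0.45). PMEPA1 rose in both treatments, by 0.26 in R1881 and 0.70 in vehicle. In ER secretion they were lower for XBP1 (-0.60) and HERPUD1 (-0.52). B2M, the light chain of class I antigen-presenting molecules, was at -0.50 and KCNN2 at -0.51. EFNA5 and KRT19, which rose in both treatments, were at -0.62 and -1.25.

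Effects were higher in R1881 for CRYBG2 (1.96), SLITRK3 (1.76), ACKR3 (1.49), the proapoptotic gene PMAIP1 (1.42) and VWF (1.08). They were also higher for TRPM8 of the androgen-induced list (0.96), OPRK1 (0.85) and the TGF-beta co-receptor TGFBR3 (0.83).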

How the results depend on the processing

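The number of genes called for RCOR1 siRNA in R1881, 1907 as reported, was 745 with the 6 libraries alone, 1221 without the UPF1 siRNA libraries, 3333 with the GC correction and 870 without both first R1881 libraries. It was 1298 with no filter, 1663 with RLE factors, 1624 with library size alone and 1701 with DESeq2. Leaving out 1 library at a time gave 1092 to 1425 genes in R1881, 1118 to 1443 in vehicle (1772 as reported) and 50 to 122 for the interaction (118 as reported). The interaction count was 57 with library size alone and 50 without both first R1881 libraries, 80 with no filter, 80 with RLE factors and 151 with DESeq2. Fits with fewer libraries have fewer degrees of freedom; the cause of the other changes was not tested. Of 129 called named genes, 95 kept the call with each of the 6 libraries left out, 34 lost it at least once and 0 reversed. No paired analysis was possible because the labels give no replicate numbers, which here follow accession order. Changes in genes with few counts are limited by depth.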
